A study of Homo sapiens with 2 samples.

Results

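Genes of glycolysis and of the response to low oxygen were followed in HUVECs, the primary endothelial cells that line the human umbilical vein. The set was 10 listed genes of the 36601 in the files, all 10 found by symbol. It was divided by role into the glucose transporter SLC2A1 with 6 glycolytic enzyme genes (HK2, PFKFB3, ALDOA, PGK1, ENO1, LDHA), called the enzyme group, and 3 hypoxia-induced regulators (PDK1, BNIP3, NDRG1). HUVECs had been grown for about 48 hours to a confluent layer in microfluidic channels of 50 µm and were then perfused for 4 hours. In the hRBC group the perfused suspension held healthy human red blood cells alone. In the 5% pdRBC group, pharmacologically dehydrated cells (treated with nystatin and sucrose until their corpuscular hemoglobin reached 40 to 42 g/dL) made up 5% of the healthy suspension; dehydration stiffens them toward the state of sickle cells. Cells were strained, treated with a red cell lysis buffer and captured at once. A lone 5′ single-cell library stands for each group, the labels do not say how many devices or donors went into it, and no group without red cells was analysed here. No difference between the groups has a replicate check, so no test and no p-value is given, and treatment, device and library cannot be told apart. Intervals are 95% and cover the counting error of UMIs only or, for shares of cells, the sampling of cells within 1 library. A UMI (unique molecular identifier) is 1 counted RNA molecule.

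Glycolysis splits glucose into pyruvate in the cytosol. Its first steps take glucose in, trap it and spend ATP, and the later steps, from triose phosphates to pyruvate, return it. Endothelial cells draw most of their ATP from this pathway even when oxygen is present, and PFKFB3, which makes an activator of phosphofructokinase, is known to set its rate in sprouting vessels. When oxygen falls, hypoxia-inducible factors (HIF) bind a short DNA element with the core ACGTG, or with G in place of the leading A, and raise transcription of the glucose transporter and nearly all glycolytic enzymes, together with genes that do not code for a step of glycolysis. Among these are PDK1, a kinase that switches off pyruvate dehydrogenase and so keeps pyruvate out of mitochondria, BNIP3, a mitochondrial membrane protein that helps mark mitochondria for removal, and NDRG1, a stress and differentiation protein.

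Promoter windows of LDHA, PGK1, ENO1 and BNIP3 are printed with the HIF core marked. They were chosen knowing that BNIP3 went the opposite way to these enzyme genes in these libraries. Whether the core bears on that was not tested. RefSeq windows of GRCh38.p14, from 250 bases before to 50 after a gene's start, were searched for 9 of the 10 genes (15 windows, since several genes have more than 1 start). The gene left out of this search was the regulator NDRG1. The motif ACGTG and the motif GCGTG were searched on both strands, so the capitals mark these letters or, for the opposite strand, CACGT and likewise CACGC. The palindrome CACGTG counts once per strand.
LDHA, chr11:18394313-18394612, plus strand: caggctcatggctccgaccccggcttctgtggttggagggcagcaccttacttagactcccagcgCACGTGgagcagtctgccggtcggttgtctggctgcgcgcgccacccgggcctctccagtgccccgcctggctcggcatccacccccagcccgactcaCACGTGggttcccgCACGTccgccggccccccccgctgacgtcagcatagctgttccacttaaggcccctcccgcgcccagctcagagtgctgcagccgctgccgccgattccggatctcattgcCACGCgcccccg
PGK1, chrX:78103998-78104297, plus strand: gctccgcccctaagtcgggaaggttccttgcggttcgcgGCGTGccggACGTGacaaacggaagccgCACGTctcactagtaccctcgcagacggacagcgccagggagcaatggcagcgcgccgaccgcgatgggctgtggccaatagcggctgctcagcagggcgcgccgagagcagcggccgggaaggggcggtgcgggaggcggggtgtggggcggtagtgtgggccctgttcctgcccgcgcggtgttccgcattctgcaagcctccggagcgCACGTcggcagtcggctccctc
ENO1, chr1:8878637-8878936, minus strand: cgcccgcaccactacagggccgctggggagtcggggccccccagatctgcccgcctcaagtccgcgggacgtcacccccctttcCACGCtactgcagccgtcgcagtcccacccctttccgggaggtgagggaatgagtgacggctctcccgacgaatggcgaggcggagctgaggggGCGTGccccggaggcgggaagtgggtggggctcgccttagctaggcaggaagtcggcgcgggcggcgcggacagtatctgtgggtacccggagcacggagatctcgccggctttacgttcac
BNIP3, chr10:131981874-131982173, minus strand: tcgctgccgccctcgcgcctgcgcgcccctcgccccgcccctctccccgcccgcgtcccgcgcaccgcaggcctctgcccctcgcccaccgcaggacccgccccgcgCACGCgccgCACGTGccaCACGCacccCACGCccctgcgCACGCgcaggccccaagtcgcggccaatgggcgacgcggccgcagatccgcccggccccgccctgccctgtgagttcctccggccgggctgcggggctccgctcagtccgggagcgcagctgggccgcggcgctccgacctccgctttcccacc
LDHA (the first of its 2 windows) and BNIP3 held 6 matches each, PGK1 4 and ENO1 2. The windows not printed held 1 (SLC2A1), 3 and 6 (HK2), 1 and 2 (PFKFB3), 1, 2 and 1 (ALDOA), 1 (LDHA) and 0 and 2 (PDK1). At least 1 match was present in 14 of the 15 windows (the exception is 1 of the 2 windows of PDK1), against 48.4% of 35116 windows of the same length over all genes. At least 4 matches were present in 4.40% of all windows and at least 6 in 0.923%. A match is a description of the letters and not a site shown to be bound. The members were listed as glycolysis and hypoxia genes, and windows of a gene can overlap, so these shares are description only. In GRCh38 coordinates from GENCODE release 29, LDHA spans chromosome 11 from 18394388 to 18408425 on the plus strand. ENO1 spans chromosome 1 from 8861000 to 8879250 and BNIP3 chromosome 10 from 131966455 to 131982013, both on the minus strand.

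The hRBC library held 2555 cells after filtering, with 13335148 UMIs and a median of 2175 per cell, and the 5% pdRBC library 1601 cells with 16127985 UMIs and a median of 9566. The libraries thus differ in depth per cell, and values by depth are given below. Of the barcodes kept, 6 occur in both libraries. Endothelial identity was clear: all 10 endothelial markers were present, with summed levels of 4104 and 3900 CPM (UMIs of a gene scaled to 1000000 UMIs of its library). Of 8 erythroid markers 6 had 0 UMIs in each library, and HBB gave 12 and 0 UMIs, so red cell RNA was close to absent. The T and NK cell list summed to 10.6 and 8.99 CPM, nearly all IL7R, the B cell list to 0.150 and 0.124 CPM, the monocyte list to 32.8 and 32.6 CPM, nearly all CD68, and the platelet list to 0.375 and 0.496 CPM. CD3E, CD3D, MS4A1, PPBP and PF4 were at 0 in both. The fibroblast and mural list summed to 394 and 347 CPM, mostly RGS5, with 2 and 0 UMIs of COL1A1, the epithelial list to 163 and 116 CPM, mostly keratins, with CDH1 at 0, and the lymphatic list to 10.3 and 13.6 CPM. Cycling markers, 10 of 10 detected, summed to 227 CPM in hRBC and 151 CPM in 5% pdRBC. Mitochondrial genes took 1.99% and 1.95% of UMIs.

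For the genes of glucose entry and of the regulation of glycolysis, the intervals of the ratio of 5% pdRBC to hRBC held 1. SLC2A1, the main glucose transporter of endothelium, stood at 9.67 CPM in hRBC (129 UMIs) and 8.99 CPM in 5% pdRBC (145 UMIs), a ratio of 0.929 (0.728 to 1.19). PFKFB3 stood at 31.3 CPM in hRBC and 32.9 CPM in 5% pdRBC, a ratio of 1.05 (0.920 to 1.19). At these counts a difference of about the size seen in the later enzymes would not have been detectable for SLC2A1. HK2, the inducible hexokinase that traps glucose in the cell, gave 39 UMIs in hRBC (2.92 CPM) and 38 in 5% pdRBC (2.36 CPM). It is the only member under the minimum of 100 UMIs over both libraries that defines a measured gene, with a ratio of 0.806 (0.502 to 1.29).

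**Figure D1:**
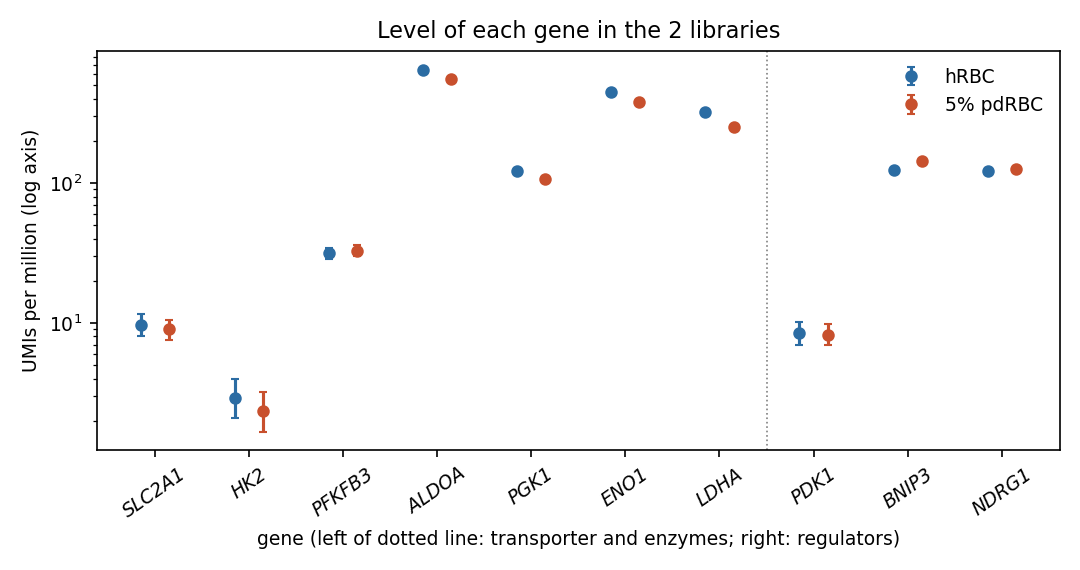
Level of each of the 10 genes in the hRBC library (blue) and the 5% pdRBC library (orange), in CPM on a log axis; bars are exact Poisson intervals of the summed UMIs, and each point is 1 library. ALDOA, PGK1, ENO1 and LDHA are lower with 5% pdRBC without overlap of the bars, and BNIP3 is higher.

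The later enzymes were each lower with 5% pdRBC, by similar amounts. ALDOA, the aldolase that cleaves fructose bisphosphate, stood at 639.7 CPM in hRBC and 551 CPM in 5% pdRBC, 1.16-fold (1.13 to 1.20) lower. PGK1, which makes the first ATP of the payoff phase, stood at 121 and 107 CPM, 1.14-fold (1.06 to 1.22) lower. ENO1, the enolase, stood at 446 and 378 CPM, 1.18-fold (1.14 to 1.22) lower.

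LDHA, which turns pyruvate into lactate, differed most, at 319 CPM in hRBC and 253 CPM in 5% pdRBC, 1.26-fold (1.21 to 1.32) lower. Of the 9 measured members, 4 were lower with a counting interval that left out 1, against 12.2% of 11043 measured genes, and 1 (BNIP3) was higher in this sense, against 15.4%. By size, 1 member (LDHA) was lower by a factor of 1.25 or more, against 4.91% of measured genes, and 0 were higher by as much, against 6.98%. Since the interval narrows with the count, the same was taken for genes of 1000 or more UMIs: 4 of the 6 members there were lower by the interval, against 20.1% of 4654 genes, and 1 was higher, against 21.1%. The log2 folds of LDHA, ENO1, ALDOA and PGK1 (-0.34, -0.24, -0.22 and -0.19) had 4.49%, 8.88%, 10.7% and 13.0% of measured genes below them. The median log2 fold of all measured genes was 0.02.

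The regulators did not follow the enzymes. BNIP3 stood at 123 CPM in hRBC (1639 UMIs) and 143 CPM in 5% pdRBC (2310 UMIs), 1.17-fold (1.09 to 1.24) higher, with 86.0% of measured genes below it. NDRG1 stood at 121 and 126 CPM, a ratio of 1.04 (0.976 to 1.11). PDK1 was sparse, at 8.47 CPM in hRBC (113 UMIs) and 8.25 CPM in 5% pdRBC (133 UMIs), with a ratio of 0.973 (0.752 to 1.26). Of the 3 regulators, BNIP3 alone had an interval that left out 1.

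Summed, the enzyme group gave 1571 CPM in hRBC and 1333 CPM in 5% pdRBC, 1.18-fold (1.16 to 1.20) lower. ALDOA, ENO1 and LDHA supply most of that sum (40.7%, 28.4% and 20.3% of it in hRBC). Leaving out ALDOA, ENO1, LDHA or PGK1 in turn kept the sum between 1.16-fold and 1.19-fold lower. Cycling markers were also lower with 5% pdRBC, and without the cycling cluster the log2 fold of the sum was -0.21, against -0.24 with it. The regulators summed to 252 CPM in hRBC and 278 CPM in 5% pdRBC, 1.10-fold (1.05 to 1.15) higher, and without BNIP3 the ratio was 1.04 (0.974 to 1.11), so that this value rests on BNIP3. The cells held 6.22 enzyme UMIs per regulator UMI in hRBC and 4.80 in 5% pdRBC, an odds ratio of 0.772 (0.735 to 0.810).

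The wider pathway, a list of 32 other genes of glucose uptake, glycolysis, lactate export and pyruvate oxidation, had values on either side of 0. Of its 25 measured genes 0 were higher by 1.25-fold or more and 2 lower by as much, with a median log2 fold of -0.04, beside 6.98% higher and 4.91% lower over all measured genes. By the counting interval 7 were lower and 2 higher, beside 12.2% and 15.4% over all measured genes. GAPDH, the dehydrogenase between TPI1 and PGK1, stood at 4593 CPM in hRBC and 3911 CPM in 5% pdRBC, 1.17-fold lower. The triose phosphate isomerase gene TPI1, the mutase gene PGAM1 and the pyruvate kinase gene PKM had log2 folds of -0.20, -0.28 and -0.21. GAPDH, TPI1, PGAM1 and PKM together were 1.17-fold (1.16 to 1.18) lower. ALDOA, TPI1, GAPDH, PGK1, PGAM1, ENO1 and PKM are the genes from aldolase to pyruvate kinase with 1000 or more UMIs here. Over all cells, each thus had a log2 fold between -0.19 and -0.28. In cells of 10000 to 20000 UMIs the log2 folds of ALDOA, ENO1 and PGK1 were -0.14, -0.12 and -0.06. Above 20000 UMIs their ratios were 1.11 (1.02 to 1.21), 1.04 (0.936 to 1.16) and 1.26 (1.01 to 1.56). TPI1, GAPDH, PGAM1 and PKM were not taken by depth.

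Before aldolase the values of measured genes were nearer to 0, though this difference along the route was not tested. HK2, under the minimum for a measured gene, had a log2 fold of -0.31 (interval of the ratio 0.502 to 1.29). The interval of SLC2A1, 0.728 to 1.19, takes in the ratios of the later enzymes. The hexokinase gene HK1 had a log2 fold of -0.05, the isomerase gene GPI -0.09, and the phosphofructokinase genes PFKL, PFKM and PFKP -0.02, 0.02 and -0.13, the last with an interval of the ratio that left out 1 (0.853 to 0.981). After pyruvate the genes split. SLC16A3, the exporter of lactate from glycolytic cells, stood at 133 CPM in hRBC and 105 CPM in 5% pdRBC, 1.26-fold lower, beside LDHA. LDHB, the other lactate dehydrogenase subunit, was level with a log2 fold of -0.04. SLC16A1, a second lactate carrier, and MPC1, a subunit of the mitochondrial pyruvate carrier, had log2 folds of 0.22 and 0.27. The other gene lower by 1.25-fold or more was ENO2 (72 and 62 UMIs), whose interval of the ratio, 0.499 to 1.01, held 1. All these genes but SLC16A3 were named after their values were seen.

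**Figure D2:**
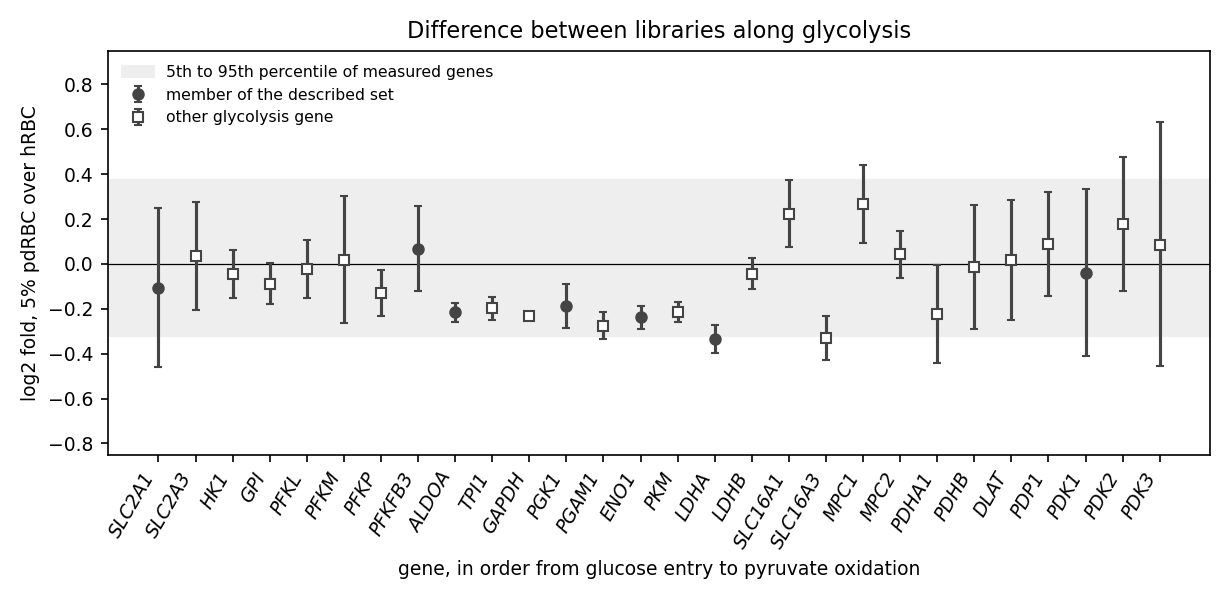
Log2 fold of 5% pdRBC over hRBC for measured genes in order from glucose entry to pyruvate oxidation, 1 library each; filled circles are members, open squares other glycolysis genes (BSG, ENO2, PGM1 and TIGAR are not drawn), bars are 95% counting intervals and the grey band holds the middle of all measured genes from the 5th to the 95th percentile (-0.32 to 0.37). From ALDOA to LDHA the points lie between -0.19 and -0.34, and those drawn before ALDOA nearer to 0. HK2, under the minimum for a measured gene, is not drawn (log2 fold -0.31).

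In the list of 35 other hypoxia genes, 31 were measured, with a median log2 fold of 0.08. Higher by 1.25-fold or more were 4 of them and lower by as much 0, and by the counting interval 9 were higher and 1 (EGLN2, an oxygen sensor) lower. Over all measured genes 6.98% were higher and 4.91% lower by size, and 15.4% higher and 12.2% lower by the interval. The 4 were ADM, a vasodilator peptide, at 15.9 and 30.01 CPM (ratio 1.89), BHLHE40, a transcriptional repressor, at 39.7 and 68.7 CPM (ratio 1.73), the growth factor VEGFA at 6.30 and 8.93 CPM (ratio 1.41), and the nuclear receptor RORA at 31.0 and 39.4 CPM (ratio 1.27).  HIF1A and EPAS1, the genes of the HIF alpha subunits, had ratios of 1.10 (1.01 to 1.20) and 1.01 (0.972 to 1.04). BNIP3L, the close relative of BNIP3, had a ratio of 1.13 (1.04 to 1.23). For the HIF targets ANKRD37 and HILPDA the ratios were 0.872 (0.666 to 1.14) and 0.968 (0.764 to 1.23). Genes of this list other than the 4 were named after their values were seen. CA9, a strongly hypoxia-dependent carbonic anhydrase, had 0 UMIs in both libraries, which allows up to 0.225 CPM in hRBC and 0.186 CPM in 5% pdRBC (3 counts), and EGLN3 had 16 and 19 UMIs.

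By cluster, the enzyme group varied over a wider range of levels than the regulators. The gap was smaller at a finer clustering (resolution 1.0), with spans of 4.14-fold and 3.11-fold. Cells were clustered without the members and the 2 lists above, so the clusters were not built on these genes. At resolution 0.5, in 16 cluster and library units of at least 20 cells and 100000 UMIs, the enzyme group ran from 630 to 3015 CPM, a 4.79-fold span. The regulators ran from 190 to 393 CPM, a 2.07-fold span. The enzyme group was highest in the 5% pdRBC cells of cluster 5 (29 cells, 3015 CPM), which the endoplasmic reticulum chaperone genes HSPA5 and HSP90B1 led, and in the hRBC cells of cluster 10 (82 cells, 2525 CPM), which SELE, CXCL1 and CCL2 led. It was lowest in cluster 9, at 750 CPM in hRBC (37 cells) and 630 CPM in 5% pdRBC (50 cells). Cluster 9 also had the highest mitochondrial share of these units, 5.22% and 8.18% of UMIs, and the highest share of the nuclear RNAs MALAT1 and NEAT1, 3.38% and 4.36%; their part in the low level was not tested. The regulators were highest in cluster 4, which EGR1, FOSB and GEM led, at 303 CPM in hRBC (355 cells) and 393 CPM in 5% pdRBC (505 cells), next to 373 CPM (281 to 485) in the 5% pdRBC cells of cluster 5. Across the 16 units Pearson's r of the 2 groups on the log2(CPM + 1) scale was 0.44 and Spearman's rho 0.37. The 16 units come from 2 libraries, 8 from each, and their enzyme and regulator levels had r of -0.02 and 0.13 with the units' median depth.

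Among the members, ALDOA, ENO1 and LDHA went together across the units, with r of 0.92 for ALDOA with ENO1, 0.92 for ENO1 with LDHA and 0.90 for ALDOA with LDHA. BNIP3 went with them, at 0.84 with ALDOA and 0.77 with LDHA, although between the libraries it differed the other way. NDRG1 did not, at -0.04 with ALDOA, 0.10 with LDHA and -0.02 with BNIP3. PFKFB3 ran opposite to ALDOA and LDHA, at -0.82 and -0.69, and was highest in cluster 9 at 80.4 CPM in hRBC (9 UMIs) and 85.6 CPM in 5% pdRBC (14 UMIs). These values describe 16 units that share libraries, and those of sparse members rest on few UMIs.

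**Figure D3:**
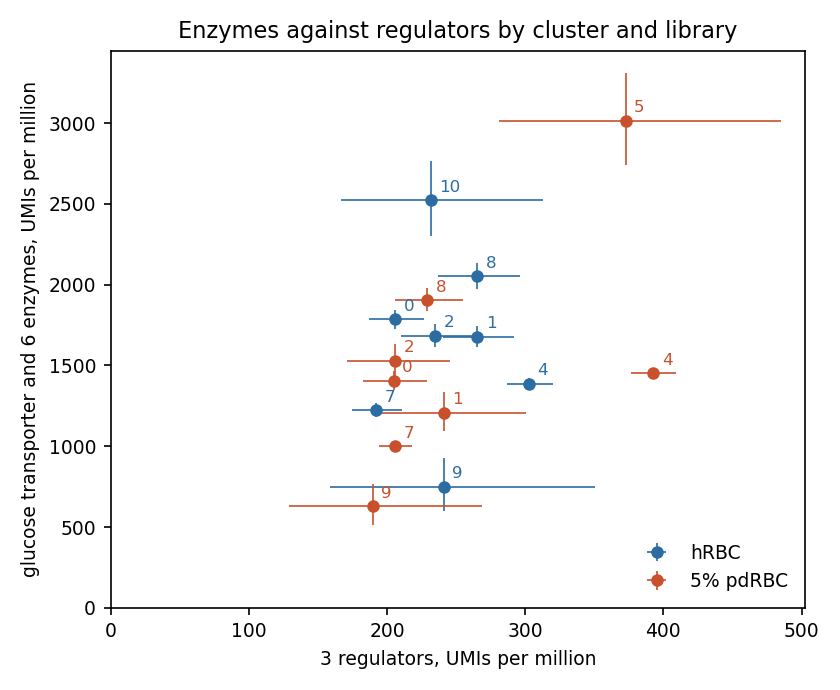
Enzyme group against regulators, both in CPM, in 16 cluster and library units (blue hRBC, orange 5% pdRBC, numbers are clusters, bars exact Poisson intervals). Cluster 4 has 303 and 393 CPM of regulators at middling enzyme levels, cluster 5 of 5% pdRBC is high in both, and cluster 9 is lowest in enzymes.

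Within clusters the enzyme difference recurred in most of the 7 that both libraries filled. The enzyme group was lower with 5% pdRBC in 6 of 7 clusters, in 5 of them with an interval that left out 1, from 1.39-fold (1.25 to 1.55) lower in cluster 1 to 1.08-fold (1.02 to 1.14) lower in cluster 8. In cluster 0, which mitotic genes such as UBE2C and TOP2A led, it stood at 1786 and 1405 CPM, 1.27-fold (1.20 to 1.34) lower. In cluster 7, led by SOX5, BMF and CYP1A1, it stood at 1225 and 1000 CPM, 1.22-fold (1.17 to 1.28) lower. Cluster 4 was the exception, at 1387 and 1454 CPM, 1.05-fold (1.01 to 1.08) higher, with ratios of 0.990 (0.922 to 1.06) for LDHA, 1.09 for ALDOA and 1.22 for PGK1. This exception depends on the clustering. At resolution 1.0 the cells of cluster 4 divide mainly between fine cluster 6 (274 of 355 hRBC and 283 of 505 5% pdRBC cells) and fine cluster 16, which EGR1 and GEM lead (24 and 175 cells), so cluster 4 has a different make-up in each library. In fine cluster 6 the enzyme group stood at 1305 and 1211 CPM, 1.08-fold (1.03 to 1.12) lower, and LDHA was 1.15-fold (1.05 to 1.26) lower. In fine cluster 16 it stood at 1710 and 1794 CPM, a ratio of 1.05 (0.967 to 1.14). ALDOA was level in both, at ratios of 1.01 (0.938 to 1.08) and 0.998 (0.880 to 1.14), while PGK1 had 1.07 (0.903 to 1.26) and 1.55 (1.09 to 2.34). Over the 13 fine clusters that both libraries filled, the enzyme group was lower with 5% pdRBC in 12, in 10 of them with an interval that left out 1, and 0 were higher by the interval; LDHA was lower in 13. These fine pairs were added after seeing the data. Cells of a cluster may still differ between the libraries in more than these genes, and the number of cells per cluster is not compared. In cluster 1 the median UMIs per cell were 1497 in hRBC and 6943 in 5% pdRBC. They were 1802 and 6011.5 in cluster 2, and 2216 and 11360 in cluster 0. Depth was closer in cluster 4 (11766 and 10840), cluster 7 (9196 and 8687), cluster 8 (14311 and 12642.5) and cluster 9 (2236 and 2611). How depth bears on these folds was not tested.

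BNIP3 and NDRG1, with ratios of 1.17 and 1.04 over all cells, also differed from each other by cluster. BNIP3 was higher with 5% pdRBC in 6 of 7 clusters and level in cluster 0 (ratio 0.9999), up to 1.28 in cluster 2 and 1.29 in cluster 4, with intervals that left out 1 in clusters 4 and 7. NDRG1 was higher with 5% pdRBC in cluster 4 only, at 162 CPM in hRBC and 216 CPM in 5% pdRBC, 1.33-fold (1.21 to 1.46). In the other 6 clusters its ratio was below 1, down to 0.486 (0.319 to 0.702) in cluster 2, where it stood at 114 and 54.8 CPM, and 0.693 (0.544 to 0.882) in cluster 8. The cells of cluster 2 differed in median depth, at 1802 UMIs in hRBC and 6011.5 in 5% pdRBC. At resolution 1.0 NDRG1 was higher in both main pieces of cluster 4, with ratios of 1.15 (1.02 to 1.29) in fine cluster 6 and 1.38 (1.10 to 1.77) in fine cluster 16, and in fine cluster 17 (9 and 31 UMIs, ratio 2.14, 1.03 to 5.30). It was lower in 9 of 13 fine clusters, in 4 of them by the interval. Cluster 4 held 43.1% of NDRG1 UMIs and 32.2% of all UMIs in hRBC, and 62.2% and 36.4% in 5% pdRBC. Without cluster 4, NDRG1 stood at 101 CPM in hRBC and 75.0 CPM in 5% pdRBC, 1.35-fold (1.23 to 1.49) lower, so the near-equal sum over all cells is made of opposite differences. Without it the enzyme group was 1.31-fold (1.28 to 1.34) lower, LDHA 1.46-fold (1.38 to 1.54) lower, and the regulators 1.08-fold (1.01 to 1.15) lower, against 1.10-fold higher with it. BNIP3 without cluster 4 had a ratio of 1.08 (0.996 to 1.17), so its interval then held 1. This leaving out was chosen after seeing the data. It takes out a cluster of close median depth (11766 and 10840 UMIs) and keeps clusters 0, 1 and 2, much shallower in hRBC. What depth adds to the folds without cluster 4 was not tested. In clusters 7 and 8, also of close depth, NDRG1 had ratios of 0.854 (0.716 to 1.02) and 0.693 (0.544 to 0.882). ADM of the hypoxia list also differed by cluster, at 14.4 CPM in hRBC and 49.9 CPM in 5% pdRBC in cluster 4. It stood at 13.2 and 12.6 CPM in cluster 7 and at 16.6 and 14.8 CPM in cluster 8. In clusters 0, 1, 2 and 9 it was higher with 5% pdRBC.

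**Figure D4:**
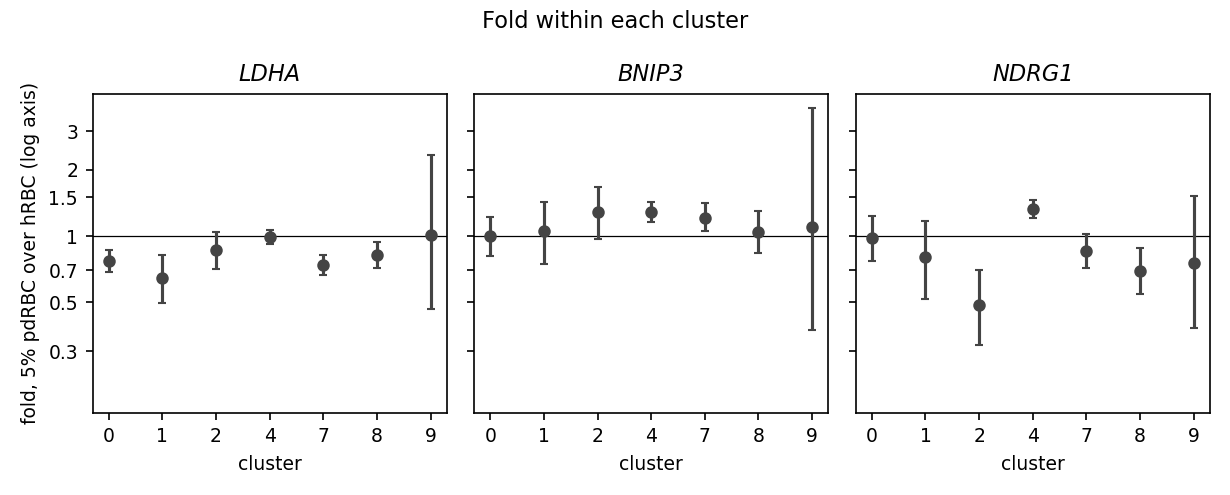
Fold of 5% pdRBC over hRBC (log axis) for LDHA, BNIP3 and NDRG1 within each of 7 clusters at resolution 0.5, with 95% counting intervals, 1 library each. NDRG1 lies above 1 in cluster 4 at 1.33 and below it in the other 6 clusters, while BNIP3 lies above 1 in 6 clusters and at 0.9999 in cluster 0.

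Depth per cell moved with the enzyme difference. In cells of 2000 to 5000 UMIs the enzyme group stood at 1770 CPM in hRBC and 1325 CPM in 5% pdRBC, 1.34-fold (1.24 to 1.44) lower. In cells of 5000 to 10000 UMIs it stood at 1243 and 1081 CPM, 1.15-fold (1.09 to 1.21) lower, and at 10000 to 20000 UMIs at 1558 and 1410 CPM, 1.11-fold (1.08 to 1.13) lower. Above 20000 UMIs, in 59 hRBC and 62 5% pdRBC cells, it stood at 1654 and 1753 CPM, a ratio of 1.06 (1.00 to 1.12) the other way. The difference was thus present, at a smaller size than in the sums, in the depth range from 5000 to 20000 UMIs that holds most UMIs of both libraries, and not in the deepest cells. The shallow cells of 1000 to 2000 UMIs were 1180 in hRBC and 44 in 5% pdRBC, with 1684 and 820 CPM.

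BNIP3 in the same ranges had ratios of 1.19 (1.02 to 1.41) at 5000 to 10000 UMIs, 1.21 (1.11 to 1.33) at 10000 to 20000 and 1.18 (0.977 to 1.43) above 20000, close to that over all cells. It was 0.924 (0.693 to 1.21) at 2000 to 5000 UMIs. For PGK1 the ratio was 1.00 (0.839 to 1.21) at 5000 to 10000 UMIs, 0.957 (0.869 to 1.05) at 10000 to 20000 and 1.26 (1.01 to 1.56) above 20000, so its lower level in the sums was not seen in cells of like depth above 5000 UMIs. By mitochondrial share, the enzyme group went from 2220 CPM in hRBC cells under 1% to 1059 CPM in those of 4% to 20%, and from 1861 to 899 CPM in 5% pdRBC. Within each of the 4 ranges it was lower with 5% pdRBC, by 1.18-fold to 1.20-fold. The regulators went from 223 to 277 CPM over these ranges in hRBC and from 308 to 262 CPM in 5% pdRBC.

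**Figure D5:**
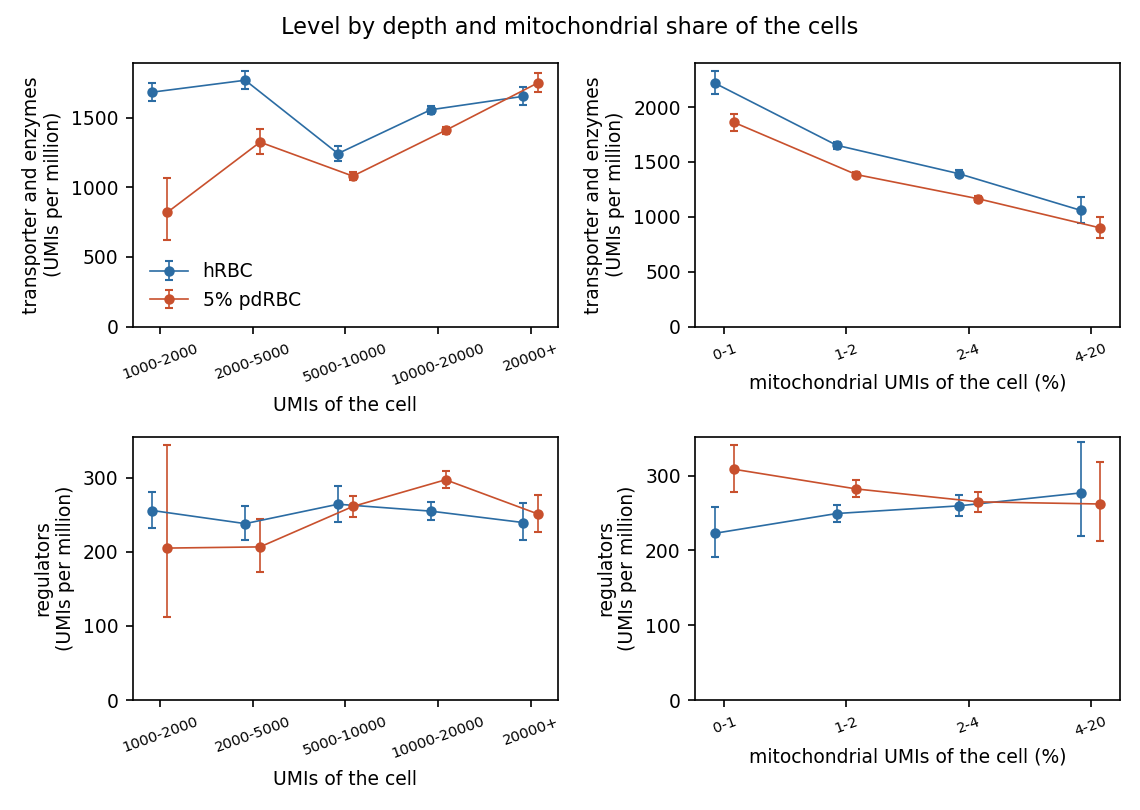
Level of the enzyme group (top) and the regulators (bottom), in CPM, by the UMIs of the cell (left) and by its mitochondrial share (right), with exact Poisson intervals; blue hRBC, orange 5% pdRBC, 1 library each. The enzyme group declines with the mitochondrial share in both libraries, from 2220 to 1059 CPM and from 1861 to 899 CPM.

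Per cell, ALDOA, LDHA and ENO1 were found in fewer 5% pdRBC cells when cells were thinned to equal UMIs. With each cell of 2000 or more UMIs thinned to 2000, ALDOA was detected in 68.1% (65.6 to 70.6) of 1375 hRBC cells and 57.9% (55.4 to 60.3) of 1557 5% pdRBC cells. LDHA was detected in 43.6% (40.9 to 46.2) and 36.3% (33.9 to 38.7), and ENO1 in 57.1% (54.4 to 59.7) and 48.2% (45.7 to 50.7). PGK1 was detected in 21.2% (19.0 to 23.4) and 18.9% (17.0 to 21.0), with overlapping intervals. BNIP3 was detected in 19.8% (17.7 to 22.0) and 22.4% (20.4 to 24.6), and NDRG1 in 21.7% (19.6 to 24.0) and 19.9% (18.0 to 22.0), with overlapping intervals for both. The thinning left out 1180 hRBC and 44 5% pdRBC cells. It equals the UMIs but not which cells enter: 606 hRBC and 187 5% pdRBC cells had 2000 to 5000 UMIs. With cells of 5000 or more UMIs thinned to 5000, LDHA was found in 72.0% of hRBC and 61.5% of 5% pdRBC cells. At that depth ALDOA was found in 89.3% and 85.5%, and ENO1 in 81.0% and 77.5%. Cells of 1 library are not replicates of a group, so the intervals above do not compare the treatments. Without thinning the order is set by depth: ALDOA was then found in 75.7% of hRBC and 90.5% of 5% pdRBC cells. No cell type that should lack these genes was present, so what free RNA adds to these shares could not be gauged.

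Cells with more regulator UMIs did not have a stable surplus of enzyme UMIs. At 2000 UMIs per cell, hRBC cells with 0, 1, and 2 or more regulator UMIs held 3.13, 3.13 and 3.60 enzyme UMIs (845, 399 and 131 cells). In 5% pdRBC the values were 2.53, 2.50 and 2.60 (949, 458 and 150 cells). The ratio of the last class to the first was 1.15 (1.04 to 1.27) in hRBC and 1.03 (0.923 to 1.15) in 5% pdRBC, and with deeper cells thinned to 5000 UMIs it was 0.923 (0.864 to 0.987) and 1.09 (1.03 to 1.15), so its direction in hRBC changed when the cells, the thinning depth and with them the classes changed together. Spearman's rho of enzyme and regulator UMIs over cells was 0.01 in hRBC and 0.01 in 5% pdRBC at 2000 UMIs, and -0.06 and 0.08 at 5000. Among the enzymes, in cells thinned to 5000 UMIs (769 and 1370 cells), Pearson's r was highest for ENO1 with LDHA, at 0.28 in hRBC and 0.30 in 5% pdRBC, and for ALDOA with ENO1, at 0.26 in both. BNIP3 with NDRG1 had an r of -0.01 and 0.01. Counts this sparse make weak correlations of no account.

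Across the 16 units, the genes whose level was most like that of the enzyme group, of 4648 genes at 1000 or more UMIs, were ANXA5 (r = 0.97), EIF4A1 (0.97), ACTB (0.97), SAP18 (0.97) and NANS (0.96), none of them in the glycolysis list. Those most like the regulators were CITED2 (r = 0.80), MIR22HG (0.78), MYADM (0.76), PPP1R15A (0.75) and RND3 (0.74). At the finer clustering, with 28 units, TPI1, SAP18 and ACTB were among the 5 closest to the enzymes, and MAFF, DNAJB1, DUSP5, ATF3 and NDFIP1 were closest to the regulators, so the latter names are not stable.

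Some members share sequence with other loci. GENCODE release 29 lists 39 pseudogenes named after BNIP3, 6 after LDHA, 4 after ENO1, 2 after ALDOA and 1 each after PGK1 and HK2, of which 0 have a row in the files, so reads that fit both could be lost or assigned to the gene. PDK1 is overlapped on the opposite strand by AC078883.1, which had 147 and 207 UMIs against 113 and 133 for PDK1 itself; whether counting used strand is not given in the sources used here, so the PDK1 values are uncertain.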

How the data were processed

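Per the submitters' processing notes, the authors used Cell Ranger 7.0.0 and GRCh38 to make the deposited UMI counts per gene and barcode. The annotation release, use of strand and any further filter are not stated there. Barcodes under 1000 UMIs, under 500 genes or above 20% mitochondrial UMIs were left out; no doublet caller was run. UMIs were summed per library, with 0.5 UMIs added to each sum before a ratio of 5% pdRBC to hRBC was taken. Ratios and shares have exact Clopper-Pearson intervals and levels exact Poisson intervals, from scipy 1.17.1. Only the ratio intervals were tested, on simulated Poisson counts. Measured genes have 100 or more UMIs over both libraries. Cells were clustered with Scanpy 1.11.5 (2000 variable genes, 30 components, 15 neighbours, Leiden resolution 0.5). Genes named by rule are the members, list genes differing by 1.25-fold or more with an interval leaving out 1, and the 5 genes most like each group. Members and lists were chosen with earlier results of these data known. Alternatives changed cell filters, scaling, cell weight, gene minimum, clustering and thinning.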

Additional observations from a re-analysis of the deposited data

Results flagged for a closer look

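The enzyme group, ALDOA, PGK1 and NDRG1 were singled out because their folds between the libraries, with counting intervals leaving out 1, pointed opposite ways in different clusters. The difference between clusters was not tested, with 1 library per group. In cluster 4 at resolution 0.5, with EGR1 among its leading genes, the fold of 5% pdRBC over hRBC was 1.05 for the enzyme group, 1.09 for ALDOA, 1.22 for PGK1 and 1.33 for NDRG1. For the enzyme group it was 0.787 in cluster 0, 0.721 in cluster 1, 0.908 in cluster 2, 0.816 in cluster 7 and 0.928 in cluster 8. For ALDOA it was 0.732 in cluster 0, 0.785 in cluster 1, 0.807 in cluster 7 and 0.891 in cluster 8. PGK1 stood at 0.738 in cluster 2 and 0.823 in cluster 7, and NDRG1 at 0.486 in cluster 2 and 0.693 in cluster 8. For the enzyme group and ALDOA the opposite direction was not kept at resolution 1.0, where the cells of cluster 4 fall mainly in a fine cluster of 293 hRBC and 290 5% pdRBC cells and another of 24 and 175. The enzyme group had ratios of 0.928 (0.889 to 0.969) and 1.05 (0.967 to 1.14) there, and ALDOA 1.01 and 0.998, while NDRG1 had 1.15 and 1.38.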

How the results depend on the processing

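No paired analysis was possible because each group has 1 library. The log2 fold of the enzyme group, -0.24, stayed negative under all 13 alternatives: -0.18 in cells of at least 5000 UMIs, -0.27 without cells above 25000 UMIs, -0.21 without the cycling cluster, -0.40 with every cell weighted equally and -0.33 with thinned cells. Of the alternatives added after seeing the data it was -0.39 without cluster 4, -0.14 in cells of 10000 to 20000 UMIs and -0.20 at 5000 to 10000. That of the regulators, 0.14, was 0.067 with equal weight, 0.037 with thinned cells, 0.22 at 10000 to 20000 UMIs, -0.018 at 5000 to 10000 and -0.11 without cluster 4, so its direction is not stable. Their difference, -0.37, was -0.46 with equal weight, -0.28 without cluster 4 and -0.18 at 5000 to 10000 UMIs. PGK1 changed sign once, to 0.00525 at 5000 to 10000 UMIs. LDHA ran from -0.54 to -0.26 over its alternatives, BNIP3 from 0.11 to 0.28 and NDRG1 from -0.44 to 0.17. Over all genes, 771 were higher by 1.25-fold or more and 542 lower, against 1737 and 1265 at a gene minimum of 20 UMIs, 249 and 183 at 500, 1338 and 1155 with equal weight and 1825 and 1391 with thinned cells. The correlation of both groups across clusters was 0.21 at resolution 1.0. The enzyme ratio of hRBC cells by regulator UMIs reversed to 0.923 at 5000 UMIs. A gene minimum sets how many genes are counted; the cause of the other changes was not tested. The depth limits SLC2A1, HK2 and PDK1, each under 300 UMIs over both libraries.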

Other observations

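The barcodes that the cell filter left out held the same genes. In hRBC 1303 such barcodes, with 986791 UMIs, had the enzyme group at 1518 CPM and the regulators at 238 CPM, near the 1571 and 252 CPM of kept cells. In 5% pdRBC 34 barcodes, with 30891 UMIs, had 1133 and 162 CPM, the latter from 5 UMIs. In 5% pdRBC 24 cells and in hRBC 20 cells were above 25000 UMIs.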
